A study of Mus musculus with 8 samples.

Results

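Blood vessels of the mouse cochlea were followed through 10 genes that mark their cells, 6 of endothelial cells (Pecam1, Cdh5, Kdr, Flt1, Tek and Slc2a1) and 4 of mural cells, the pericytes and smooth muscle cells around the endothelium (Pdgfrb, Rgs5, Abcc9 and Kcnj8). They were taken by gene symbol from the deposited count tables, where all 10 were found among 47628 entries that name a gene. The tables hold RNA sequencing counts of whole cochleae from 4 WT and 4 Opa1+/- mice. The Opa1+/- mice carry 1 copy of Opa1 with the delTTAG mutation of human dominant optic atrophy, introduced as a knock-in on a mixed C57BL/6J and 129Sv/Pas background, and the WT mice are their littermates. No other allele or treatment distinguished the groups. The methods give the age as postnatal day 21 and the supplement as 1 month, with 8 cochleae from 4 mice per genotype. The mutation is carried by every cell of these mice, no vessel or cell type was isolated, and the sex of each mouse is not in the labels.

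Endothelial cells form the inner wall of every vessel, hold to each other through junction proteins such as VE-cadherin, and respond to VEGF and angiopoietins through receptor tyrosine kinases. Mural cells are recruited by PDGF-B from the endothelium, and their ATP-sensitive potassium channels couple metabolic state to vessel tone. In the cochlea the capillary bed of the stria vascularis, with its tightly sealed endothelium and dense pericytes, forms the blood-labyrinth barrier and supplies the tissue that generates the endocochlear potential. The comparison asks whether the RNA level of these vascular genes differed between the genotypes at an age before hearing loss.

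Library depth ranged from 15978051 to 20828030 counts on named genes, and mitochondrially encoded genes took 11.7 to 16.1% of them. Levels are given as CPM, the counts of a gene per 1000000 counts of its library, with library sizes scaled by TMM factors between 0.948 and 1.06. Opa1, the targeted gene, was at 112 to 126 CPM in the WT mice and at 60.4 to 70.02 CPM in the Opa1+/- mice, a log2 fold change of -0.87 ± 0.07 (SE; 4 mice per genotype; edgeR quasi-likelihood test, adjusted p = 0.00515). Each library therefore carried the Opa1 level of its label. All 10 listed genes of strial marginal and intermediate cells were detected, with a summed level of 499 to 1014 CPM.

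None of the 10 vascular genes passed an adjusted p of 0.05 in the quasi-likelihood test of edgeR, adjusted by the Benjamini-Hochberg method over 19366 genes tested. Of all genes tested 5 passed, or 0.0258%. DESeq2's Wald test also called 0 of the 10, and 25 or 0.129% of all genes. At an unadjusted p under 0.05 edgeR gave 1 of the 10 with a higher level in Opa1+/- mice, Cdh5, and 0 with a lower level, where 3.51% of all tested genes were higher and 3.22% lower at that p. DESeq2 likewise gave 1 of the 10 at an unadjusted p under 0.05, where its shares of all genes were 2.73% higher and 3.07% lower. Cdh5 was also the one gene of the 10 for which the WT and Opa1+/- mice did not overlap, against 4.31% of all tested genes. The estimate was above 0 for 8 genes and below 0 for 2, where 50.1% of all tested genes were above 0. The median log2 fold change was 0.07 over the endothelial genes and 0.05 over the mural genes, against 0.000395 over all genes tested. With single mice left out, the endothelial median ran from 0.0087 to 0.13 and the mural median from 0.015 to 0.13. In RNA from whole cochleae, the number of vascular cells and the RNA per cell cannot be told apart.

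**Figure D1:**
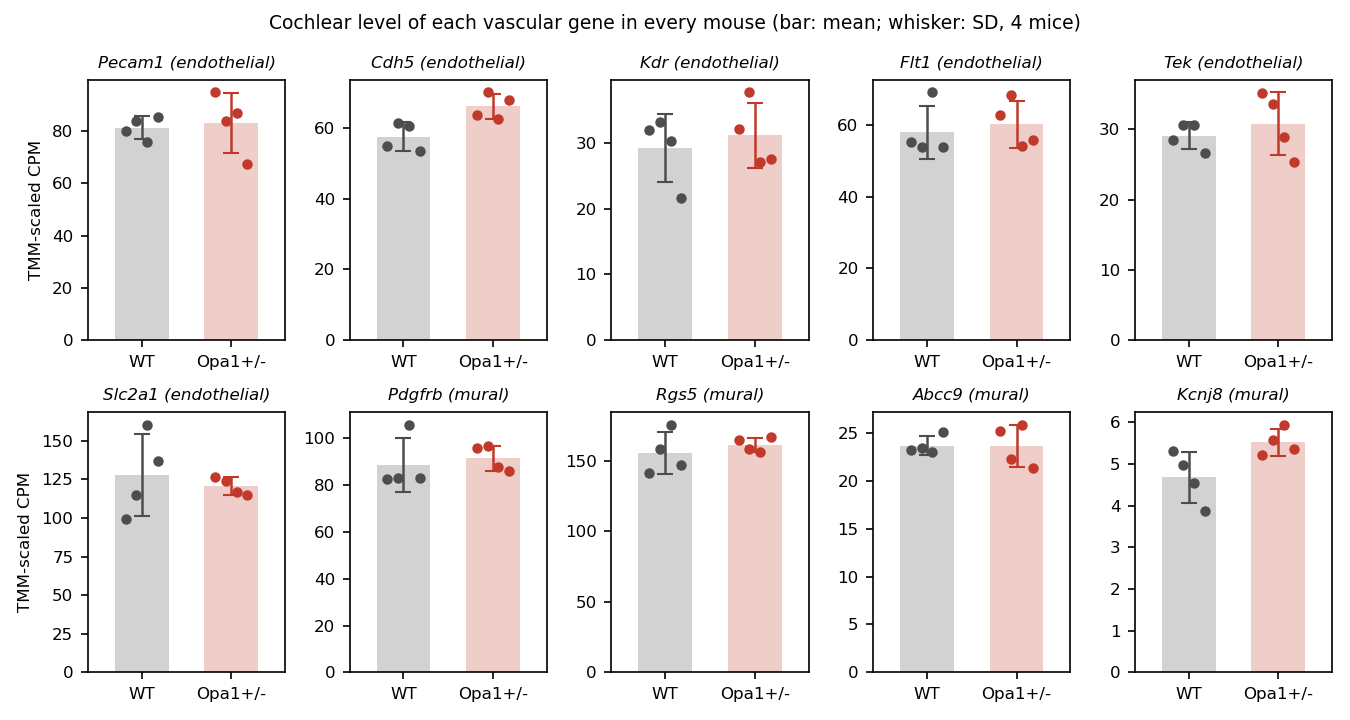
TMM-scaled CPM of the 10 vascular genes in each of the 4 WT (grey) and 4 Opa1+/- (red) mice, 1 panel per gene, with bars for the mean and whiskers for the SD. The genotypes overlap in each panel except that of Cdh5, where the Opa1+/- mice sit between 62.5 and 70.1 CPM and the WT mice between 53.5 and 61.5 CPM.

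The junction genes came first. Cdh5 encodes VE-cadherin, the adherens junction protein that holds endothelial cells together, and lies on chromosome 8 from 104101625 to 104144511 (GRCm38, plus strand). It was at 54.9, 61.5, 60.6 and 53.5 CPM in WT mice 4, 5, 6 and 8, and at 63.8, 70.1, 62.5 and 68.0 CPM in Opa1+/- mice 2, 7, L and H. Here L and H stand for the lower and the higher of a pair of 3-digit animal numbers, and values below keep this order of mice. All 4 Opa1+/- mice were above all 4 WT mice, with a gap between the highest WT mouse and the lowest Opa1+/- mouse that was small beside the range within each genotype. The log2 fold change was 0.20 ± 0.07 (SE; 4 mice per genotype; edgeR, unadjusted p = 0.0149, adjusted p = 0.722), a difference of 14.8% with a 95% interval from 3.42 to 27.4%. The exact two-sided permutation test over 70 arrangements of the mice gave p = 0.0286, unadjusted and the smallest that 4 against 4 mice can give. Without WT mouse 8 the unadjusted edgeR p was 0.0547.

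Pecam1, on chromosome 11 from 106654217 to 106750628 (minus strand), encodes the adhesion protein CD31 of endothelial cell contacts, which platelets and leukocytes carry too. Its level was 79.9, 84.0, 75.9 and 85.6 CPM in the WT mice and 94.8, 83.7, 86.8 and 67.5 CPM in the Opa1+/- mice. The highest and the lowest of the 8 values were both from Opa1+/- mice, and the genotypes overlapped. Its log2 fold change was 0.03 ± 0.10 (SE; edgeR adjusted p = 0.960), with a 95% interval of the difference from -12.2 to 19.2%.

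Both main VEGF receptors of blood vessel endothelium were measured. Kdr, on chromosome 5 from 75932827 to 75978458 (minus strand), encodes VEGFR2, the receptor through which VEGF-A drives endothelial growth. Kdr was at 31.9, 33.2, 30.3 and 21.6 CPM in WT mice and at 32.2, 37.7, 27.1 and 27.6 CPM in Opa1+/- mice, with WT mouse 8 lowest and Opa1+/- mouse 7 highest. The difference between the genotypes was 6.74%, with a 95% interval from -15.3 to 34.5% (edgeR adjusted p = 0.921), and without WT mouse 8 its estimate turned to a log2 fold change of -0.03. Flt1, on the same chromosome from 147561604 to 147726011 (minus strand), encodes VEGFR1, which binds VEGF-A tightly and, as a soluble form, takes it away from VEGFR2. Flt1 was at 55.1, 53.9, 69.1 and 53.9 CPM in WT mice and at 62.6, 68.3, 54.0 and 55.7 CPM in Opa1+/- mice. WT mouse 6 stood apart from the other WT mice, which were nearly equal, and Opa1+/- mouse 7 was close to it. For Flt1 the log2 fold change was 0.05 ± 0.10 (SE; edgeR adjusted p = 0.938), with a 95% interval from -11.7 to 22.0% for the difference.

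Tek, on chromosome 4 from 94739289 to 94874976 (plus strand), encodes Tie2, the endothelial receptor of the angiopoietins that keeps vessels quiescent. Tek was at 28.5, 30.6, 30.7 and 26.6 CPM in WT mice and at 35.2, 33.5, 29.0 and 25.3 CPM in Opa1+/- mice. The WT values lay inside the Opa1+/- range, and Opa1+/- mice 2 and 7 were above every WT mouse. Tek had a log2 fold change of 0.08 ± 0.10 (SE; edgeR adjusted p = 0.902), and the 95% interval of the difference ran from -9.98 to 24.5%. Without mice L and H the Tek genotypes no longer overlapped, as for 12.2% of all genes tested in that comparison. The log2 fold change was then 0.24 (edgeR unadjusted p = 0.0218, adjusted p = 0.9996). In that smaller comparison 285 of 19454 tested genes were higher at an unadjusted p under 0.05. The log2 fold change of Tek was 0.014 without Opa1+/- mouse 2 and 0.037 without WT mouse 8.

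Slc2a1, on chromosome 4 from 119108711 to 119137983 (plus strand), encodes the glucose transporter GLUT1, which carries glucose across barrier endothelium and is also made by cells outside vessels. Slc2a1 was at 99.1, 115, 160 and 137 CPM in WT mice and at 127, 124, 117 and 115 CPM in Opa1+/- mice. The WT mice held both the lowest and the highest value, with an SD of 26.6 CPM against 5.56 CPM in the Opa1+/- mice, which lay inside the WT range. The log2 fold change of -0.08 ± 0.13 (SE; edgeR adjusted p = 0.920) had a 95% interval of the difference from -23.1 to 15.8%, and it was 0.04 without WT mouse 6.

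Among the mural genes, Pdgfrb lies on chromosome 18 from 61045150 to 61085061 (plus strand) and encodes the receptor through which endothelial PDGF-B recruits and keeps pericytes. Fibroblasts express it too. Pdgfrb was at 82.5, 82.8, 106 and 82.7 CPM in WT mice and at 95.7, 96.4, 87.6 and 86.1 CPM in Opa1+/- mice. WT mouse 6 was above every other mouse, while the other 3 WT mice were nearly equal and below every Opa1+/- mouse. The log2 fold change was 0.05 ± 0.09 (SE; edgeR adjusted p = 0.937), with a 95% interval of the difference from -10.3 to 19.3%. Without WT mouse 6 the genotypes did not overlap, as for 9.12% of all genes tested in that comparison, and the log2 fold change was 0.15 (edgeR unadjusted p = 0.0408, adjusted p = 0.636).

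Rgs5, on chromosome 1 from 169655501 to 169695813 (plus strand), encodes a regulator of G protein signalling that is abundant in pericytes. Rgs5 was at 141, 158, 175 and 147 CPM in WT mice and at 164, 158, 156 and 166 CPM in Opa1+/- mice, so that the Opa1+/- values lay inside the WT range. Rgs5 had a log2 fold change of 0.05 ± 0.07 (SE; edgeR adjusted p = 0.913), and the interval of the difference ran from -7.71 to 16.5%.

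Abcc9 and Kcnj8 encode the regulatory subunit SUR2 and the pore Kir6.1 of the vascular ATP-sensitive potassium channel, and they are neighbours on the minus strand of chromosome 6, Kcnj8 from 142564837 to 142571614 and Abcc9 from 142587862 to 142702315. Abcc9 was at 23.2, 23.4, 22.9 and 25.1 CPM in WT mice and at 25.2, 22.2, 25.8 and 21.3 CPM in Opa1+/- mice. Its means were 23.7 ± 0.96 and 23.6 ± 2.20 CPM (SD, n = 4 each), and the 95% interval of the difference, from -11.5 to 12.6%, was among the narrowest of the 10 genes (edgeR adjusted p = 0.997). Kcnj8 was at 5.31, 4.98, 4.54 and 3.87 CPM in WT mice and at 5.20, 5.56, 5.94 and 5.36 CPM in Opa1+/- mice. Only WT mouse 4 reached into the Opa1+/- range, above Opa1+/- mouse 2. The log2 fold change was 0.24 ± 0.13 (SE; edgeR unadjusted p = 0.101, adjusted p = 0.764), a difference of 18.1% with a 95% interval from -3.87 to 45.1%. Leaving out single mice moved it between 0.15, without WT mouse 8, and 0.31, without WT mouse 4. Kcnj8 rested on the fewest reads of the 10 genes, 76 to 111 counts per mouse, so that counting error weighs most on it.

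**Figure D2:**
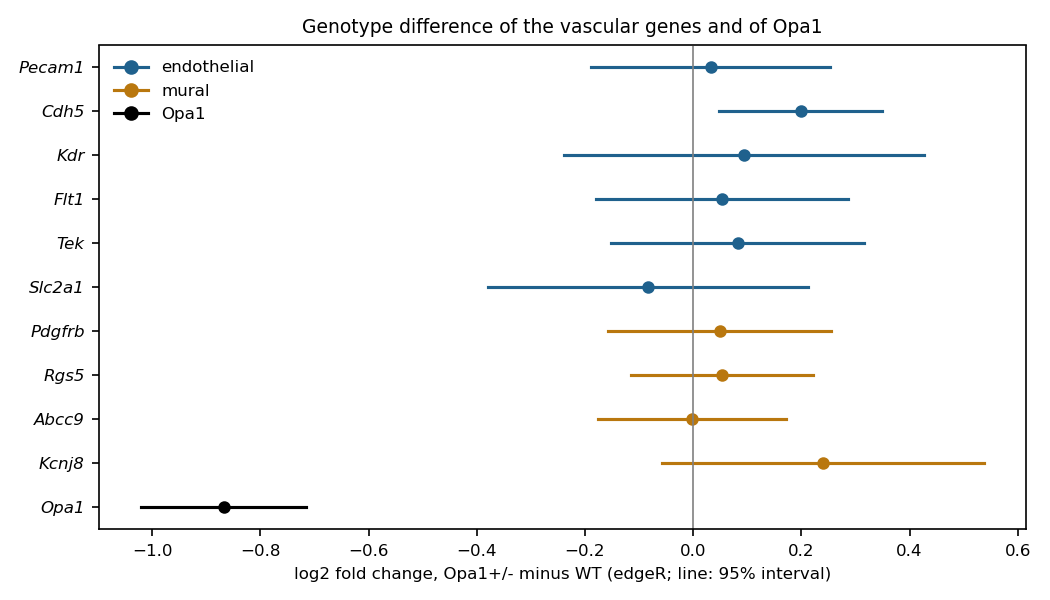
Log2 fold change of the 10 vascular genes and of Opa1 in Opa1+/- relative to WT mice from edgeR, with lines for 95% intervals (4 mice per genotype). The interval includes 0 for each vascular gene except Cdh5, whose interval runs from 0.05 to 0.35, and Opa1 lies at -0.87.

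Annotated antisense transcripts overlap exons of Slc2a1 over 105 bases (Gm12868) and of Abcc9 over 158 bases (5330439B14Rik). The use of strand in counting is not given in the sources used here, so reads of such partners cannot be told apart, but these partners held 2 and 0 counts over all 8 mice.

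To compare levels between genes, CPM was divided by the length of the merged exons of each gene in the GENCODE vM21 annotation. On this scale Slc2a1 and Rgs5 were highest, with levels of 35.4 ± 5.20 and 34.8 ± 2.37 CPM per kb (SD, n = 8 mice). These neighbours did not differ beyond their spread, as Slc2a1 was above Rgs5 in 3 of 8 mice. Pdgfrb followed at a level of 16.4 ± 1.54 CPM per kb, below Rgs5 in 8 of 8 mice. Cdh5 at 14.7 ± 1.37 and Pecam1 at 13.2 ± 1.30 CPM per kb came next. Their order was less firm, since Pdgfrb was above Cdh5 in 7 of 8 mice and Cdh5 above Pecam1 in 6 of 8.

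The endothelial receptors were lower. Tek had a level of 6.35 ± 0.71 CPM per kb, Flt1 of 4.38 ± 0.49 and Kdr of 3.34 ± 0.53. Pecam1 was above Tek, Tek above Flt1 and Flt1 above Kdr in 8 of 8 mice. The channel subunits closed the order, Abcc9 with a level of 2.82 ± 0.19 and Kcnj8 with 2.00 ± 0.25 CPM per kb. Kdr was above Abcc9 in 6 of 8 mice and Abcc9 above Kcnj8 in 8 of 8. The coefficient of variation over the 8 mice was between 6.65% for Abcc9 and 15.9% for Kdr.

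The length used mattered for some of these levels. With the longest annotated transcript of each gene instead of merged exons, Pecam1 moved from 13.2 to 23.9 CPM per kb and from rank 5 to rank 3, Flt1 from 4.38 to 8.57 CPM per kb and from rank 7 to rank 6, and Rgs5 passed Slc2a1. Kdr moved from 3.34 to 5.10 CPM per kb and stayed at rank 8.

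**Figure D3:**
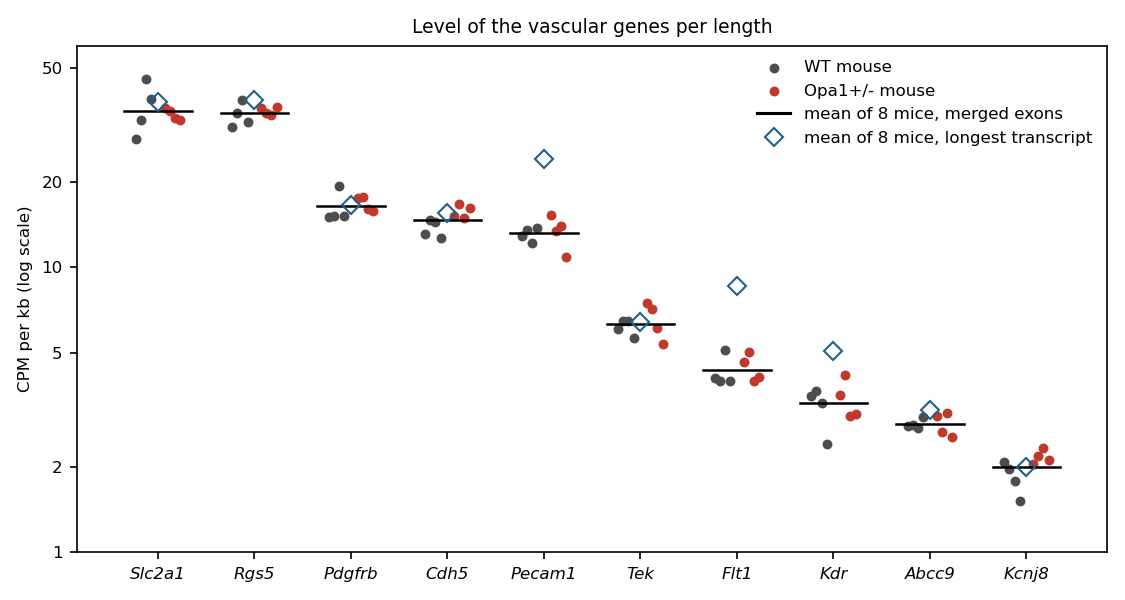
Level of the 10 vascular genes as CPM per kb of merged exons on a log axis, in order of the mean over 8 mice (black line), with grey points for WT and red points for Opa1+/- mice. Open diamonds show the mean with the length of the longest transcript, which is clearly higher than the line for Pecam1 (23.9 CPM per kb), Flt1 (8.57 CPM per kb) and Kdr (5.10 CPM per kb).

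Relatives of the 10 genes stood beside them on the same per-length scale. The other subunits of ATP-sensitive potassium channels, the pore gene Kcnj11 with a level of 0.737 ± 0.168 CPM per kb (SD, n = 8 mice) and the regulatory gene Abcc8 with 1.03 ± 0.20, were below Kcnj8 and Abcc9. The neuronal glucose transporter gene Slc2a3 had a level of 4.86 ± 0.66 CPM per kb, well below Slc2a1. Of other vascular genes, the endothelial tight junction gene Cldn5 was at 13.8 ± 2.43 CPM per kb and the endothelial sialomucin gene Emcn at 7.14 ± 0.60 CPM per kb. The Tek relative Tie1 was at 4.57 ± 0.65 CPM per kb. The pericyte proteoglycan gene Cspg4, with 1.26 ± 0.29 CPM per kb, and the mural receptor gene Notch3, with 2.01 ± 0.25, were far below Pdgfrb and Rgs5.

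Ratios of 2 genes within a mouse do not depend on the scaling between libraries, and 5 were compared by exact two-sided permutation tests over 70 arrangements, with adjustment over the 5. The receptor ratio of Kdr over Flt1, per length, was 0.866, 0.920, 0.656 and 0.599 in WT mice and 0.769, 0.825, 0.751 and 0.742 in Opa1+/- mice. The Opa1+/- mice lay inside the WT range, and the log2 ratio differed by 0.04 (exact permutation p = 0.771, adjusted p = 0.943).

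The channel subunit ratio of Abcc9 over Kcnj8 was 1.33, 1.42, 1.53 and 1.96 in WT mice and 1.47, 1.21, 1.32 and 1.21 in Opa1+/- mice. It was lower in 3 of the 4 Opa1+/- mice than in any WT mouse, while mouse 2 lay within the WT range. The mean log2 difference was -0.25 (exact permutation p = 0.114, adjusted p = 0.333). With single mice left out it ran from -0.32 without WT mouse 4 to -0.14 without WT mouse 8. Without Opa1+/- mouse 2 it was -0.31 and the genotypes did not overlap (exact permutation p = 0.0571, unadjusted). The ratio of mural Pdgfrb to endothelial Cdh5 ranged from 1.03 to 1.34 in WT mice and from 0.972 to 1.15 in Opa1+/- mice (log2 difference -0.14, exact permutation p = 0.200, adjusted p = 0.333), and without WT mouse 6 the difference was -0.081. Slc2a1 over Cdh5 ranged from 2.17 to 3.17 in WT mice and from 2.03 to 2.38 in Opa1+/- mice (log2 difference -0.26, exact permutation p = 0.200, adjusted p = 0.333), and without WT mouse 6 the difference was -0.17. Between the mural genes, Rgs5 over Pdgfrb was held between 1.98 and 2.33 in all 8 mice, with means that differed by 0.0018 on the log2 scale (exact permutation p = 0.943, adjusted p = 0.943). With all 8 mice, no ratio separated the genotypes.

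Much of the spread belonged to single mice. WT mouse 6 had the highest level of 4 of the 10 genes, Flt1, Slc2a1, Pdgfrb and Rgs5, and WT mouse 4 and WT mouse 8 each had the lowest level of 3. Among the Opa1+/- mice, mouse H had the lowest level of 3 genes, Pecam1, Tek and Abcc9, yet its Cdh5 level was above that of every WT mouse. The summed level of the 6 endothelial genes ran from 349 to 427 CPM in WT mice and from 359 to 417 CPM in Opa1+/- mice. Slc2a1, which is also made outside vessels, gave 99.1 to 160 CPM of the WT sums and 115 to 127 CPM of the Opa1+/- sums. The sum of the 4 mural genes ran from 252 to 309 CPM and from 275 to 290.5 CPM.

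**Figure D4:**
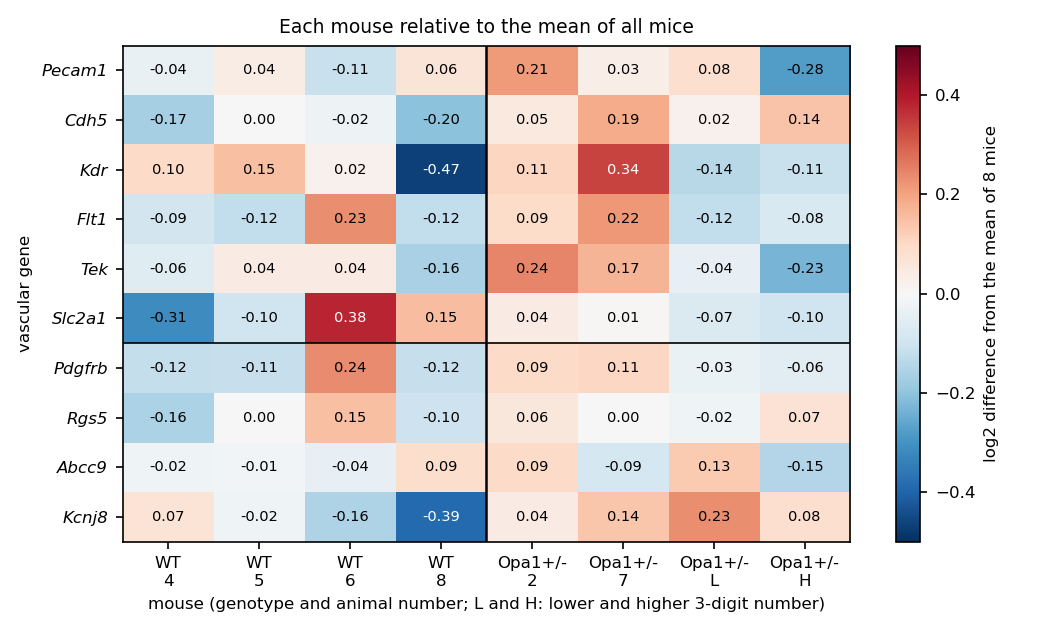
Log2 difference of each mouse from the mean of all 8 mice for the 10 vascular genes (rows; endothelial above the line, mural below), with WT mice left and Opa1+/- mice right of the vertical line. Red cells are above and blue cells below the mean; the extremes are Slc2a1 in WT mouse 6 (0.38) and Kdr in WT mouse 8 (-0.47), and Cdh5 is at or below 0 in each WT mouse and above 0 in each Opa1+/- mouse.

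Markers of other cells in the dissected tissue varied between the mice as well. The summed level of 13 erythroid genes was 21685, 12505, 8906 and 7881 CPM in WT mice and 15654, 15272, 18668 and 25252 CPM in Opa1+/- mice, so that WT mouse 4 alone lay in the Opa1+/- range. The estimate was above 0 for 13 of these 13 genes with a median log2 fold change of 0.52, and none passed the adjusted threshold or an unadjusted p of 0.05 in edgeR. Without WT mouse 4 this median was 0.95 and 10 of the 13 genes had an unadjusted p under 0.05, where 6.03% of all tested genes were higher at that p, with 0 past the adjusted threshold. Without WT mouse 6 the median was 0.27. The haemoglobin gene Hbb-bs was at 1961 ± 970 and 2929 ± 755 CPM (SD, n = 4 each), and the haem synthesis gene Alas2 at 65.3 ± 33.4 and 98.4 ± 19.0 CPM. The erythroid estimates lay on the same side of 0 as that of Cdh5, and the part of blood content in the Cdh5 difference was not tested. Skeletal muscle genes summed to 2469 CPM in WT mouse 6, the mouse with the highest Flt1, Slc2a1, Pdgfrb and Rgs5, and to between 334 and 683 CPM in the other WT mice. In Opa1+/- mice the muscle sum was 171 to 1245 CPM. WT mouse 6 also had the highest macrophage sum of all mice, 221 CPM, and the highest strial sum. The strial sums were 499, 786, 1014 and 843 CPM in WT mice and 740, 669, 886 and 702 CPM in Opa1+/- mice. The part of muscle, macrophage or strial content in these 4 genes was not tested. The estimate was below 0 for 10 of the 10 muscle genes, with a median log2 fold change of -0.68 that was 0.64 without WT mouse 6, and none had an unadjusted p under 0.05 in edgeR. The muscle actin gene Acta1 alone was at 89.4 ± 125 CPM in WT mice and 53.1 ± 46.2 CPM in Opa1+/- mice.

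Platelet genes, relevant to Pecam1, summed to 58.9 to 182 CPM in WT mice and 65.5 to 113 CPM in Opa1+/- mice, with Pf4 at 16.7 ± 10.7 and 15.6 ± 5.74 CPM. Macrophage genes summed to 131 to 221 and 155 to 205 CPM, with Csf1r at 40.7 ± 6.97 and 39.9 ± 2.32 CPM. Neutrophil and marrow genes summed to 431 to 1421 and 455 to 1176 CPM. Fibroblast genes, relevant to Pdgfrb, summed to 2463 to 2700 CPM in WT mice and 2194 to 2883 CPM in Opa1+/- mice, with Dcn at 889 ± 43.9 and 920 ± 70.5 CPM. Bone genes summed to 604 to 735 and 533 to 737 CPM. Estimates were below 0 for 8 of 10 platelet genes (median log2 fold change -0.21, from -0.62 to 0.40 under the alternatives) and 7 of 10 bone genes (-0.033). They were above 0 for 7 of 10 fibroblast genes (median 0.085, from -0.018 to 0.13), 6 of 11 macrophage genes (0.056) and 5 of 10 neutrophil and marrow genes (-0.0097). Of these genes 1, on the fibroblast list, had an unadjusted p under 0.05 in edgeR. Of the 10 strial genes 8 had an estimate below 0, with a median log2 fold change of -0.14 that was 0.049 without WT mouse 6. The ranges of the sums overlapped between the genotypes for each list, and no listed gene of these cell types passed the adjusted threshold in edgeR.

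The pathways around the 10 genes were read from 8 further lists, of which 91 genes were tested. None passed the adjusted threshold in edgeR. At an unadjusted p under 0.05, 4 were higher and 3 lower in Opa1+/- mice, shares close to the 3.51% and 3.22% of all tested genes, and the estimate was above 0 for 49 of the 91. With each mouse left out in turn, the unadjusted p stayed under 0.05 each time for Robo4 and Slco1a4 and not for the other 5 genes.

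Of 20 further endothelial genes tested, 17 had an estimate above 0, where 50.1% of all tested genes did, with a median log2 fold change of 0.09 that stayed between 0.00255 and 0.20 under the alternatives. The unadjusted p was under 0.05 for 3 higher genes, which were Eng, Robo4 and Plvap, and for 1 lower gene, Slco1a4, where all tested genes had shares of 3.51% higher and 3.22% lower. Robo4, a guidance receptor of endothelial cells, was at 9.48, 8.69, 9.62 and 9.65 CPM in WT mice and at 12.2, 12.03, 10.2 and 11.04 CPM in Opa1+/- mice, without overlap (log2 fold change 0.28 ± 0.09 SE, edgeR unadjusted p = 0.0136, adjusted p = 0.722). It was the one gene of the 20 whose genotypes did not overlap, a share near the 4.31% of all tested genes.

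Eng, an endothelial coreceptor of TGF-beta signalling, was at 45.4, 45.7, 54.3 and 46.4 CPM in WT mice and at 59.3, 57.2, 57.0 and 49.5 CPM in Opa1+/- mice, where WT mouse 6 lay above Opa1+/- mouse H (log2 fold change 0.22 ± 0.08 SE, edgeR adjusted p = 0.722). Plvap, a protein of fenestrated endothelium, had a log2 fold change of 0.32 (edgeR unadjusted p = 0.0365, adjusted p = 0.728) and is named here after its value was seen. In the other direction, the organic anion transporter gene Slco1a4 was at 55.5, 67.0, 71.5 and 61.5 CPM in WT mice and at 52.0, 57.6, 48.0 and 43.9 CPM in Opa1+/- mice, with WT mouse 4 below Opa1+/- mouse 7 (log2 fold change -0.34 ± 0.10 SE, edgeR unadjusted p = 0.00769, adjusted p = 0.722). Cldn5, Emcn and Tie1 had log2 fold changes of 0.03, 0.12 and 0.20, each with an adjusted p of 0.766 or more. With single mice left out, Cldn5 ran from -0.063 to 0.22, on both sides of 0, Emcn from 0.081 to 0.18 and Tie1 from 0.11 to 0.29.

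**Figure D5:**
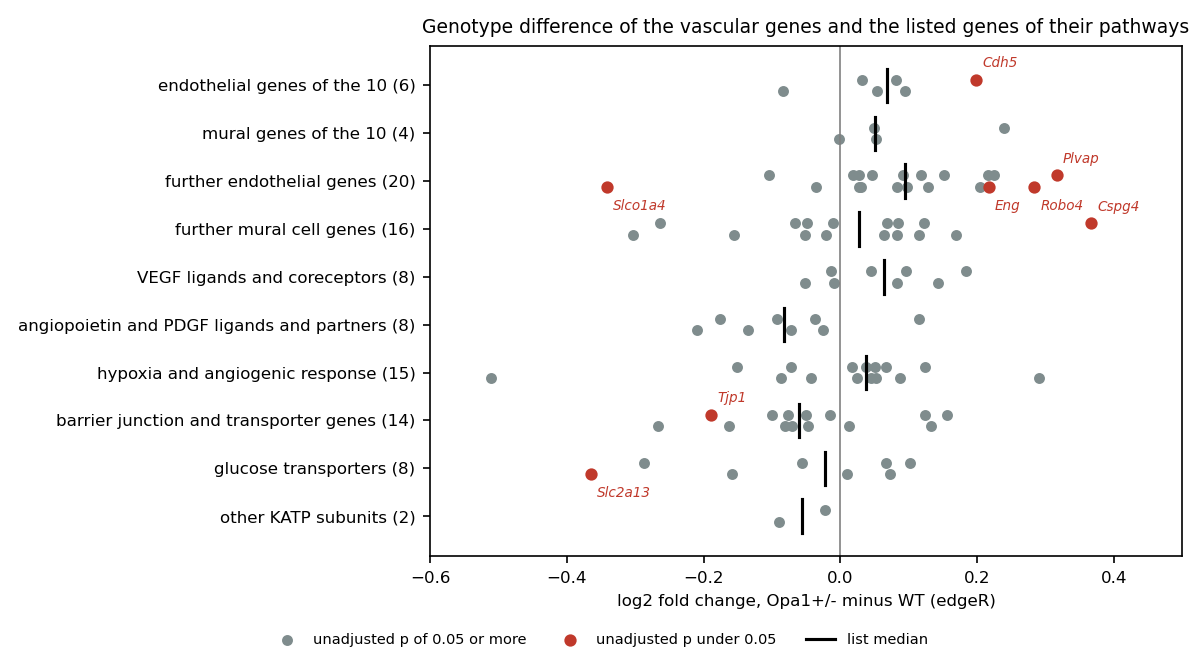
Log2 fold change (Opa1+/- relative to WT, edgeR) of the 10 vascular genes and of 91 genes of 8 related lists, 1 point per gene, with the number of genes in brackets and a black line at the list median. Red points have an unadjusted p under 0.05, and no gene shown passed the adjusted threshold of 0.05.

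Further mural cell genes were evenly split, 8 above 0 and 8 below 0, with a median log2 fold change of 0.03 that ran from -0.057 to 0.14 under the alternatives. Cspg4, which encodes the pericyte proteoglycan NG2 and is also expressed by glial precursors, was at 11.1, 14.4, 13.3 and 13.8 CPM in WT mice and at 21.8, 17.6, 16.03 and 12.3 CPM in Opa1+/- mice (log2 fold change 0.37 ± 0.16 SE, edgeR unadjusted p = 0.0491, adjusted p = 0.740). Opa1+/- mouse H lay within the WT range, and without Opa1+/- mouse 2 the log2 fold change of Cspg4 was 0.23 (edgeR unadjusted p = 0.158). Notch3 and the mural transcription factor gene Tbx18 had log2 fold changes of 0.17 and -0.16, which ran from 0.10 to 0.25 and from -0.27 to -0.058 with single mice left out. The smooth muscle actin gene Acta2 ranged from 206 to 439 CPM in WT mice and from 138 to 521 CPM in Opa1+/- mice, with a log2 fold change of 0.08 ± 0.37 (SE) that ran from -0.30 to 0.36 with single mice left out.

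For the ligands of the receptors, Vegfa, the ligand of Kdr and Flt1, was at 50.7 ± 5.74 CPM in WT mice and 57.6 ± 9.70 CPM in Opa1+/- mice (SD, n = 4; log2 fold change 0.18, edgeR adjusted p = 0.798). Vegfb, which binds Flt1, and the coreceptor gene Nrp1 had log2 fold changes of 0.14 and 0.10, and 5 of the 8 genes of this list were above 0. With single mice left out, the log2 fold change ran from 0.11 to 0.29 for Vegfa, from 0.088 to 0.25 for Vegfb and from 0.016 to 0.15 for Nrp1. Of 8 angiopoietin and PDGF genes 7 were below 0, with a median log2 fold change of -0.08 that ran from -0.15 to -0.045 under the alternatives. Angpt1, the activating ligand of Tek, was at 14.8 ± 1.16 and 13.1 ± 1.42 CPM (log2 fold change -0.18, edgeR adjusted p = 0.767). Pdgfd, a ligand of Pdgfrb, and Pdgfra, the receptor of fibroblasts and glial precursors, had log2 fold changes of -0.21 and -0.14. Pdgfb, the endothelial ligand of Pdgfrb, was at 8.23 ± 1.35 and 8.01 ± 0.69 CPM, a log2 fold change of -0.04 that ran from -0.11 to 0.075 with single mice left out. Over the same fits, Angpt1 ran from -0.23 to -0.11, Pdgfd from -0.28 to -0.14 and Pdgfra from -0.19 to -0.071.

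Genes of the hypoxia and angiogenic response were above 0 for 10 of 15, with a median log2 fold change of 0.04 that ran from -0.034 to 0.076 under the alternatives. The lowest unadjusted p of this list belonged to Hif3a, a hypoxia-inducible factor subunit (log2 fold change -0.51 ± 0.36 SE, edgeR adjusted p = 0.799). Apln, the apelin gene of sprouting endothelium, and the oxygen sensor gene Egln3 had log2 fold changes of 0.29 and -0.15. Apln rested on only 18 to 41 counts per mouse (SE 0.23, edgeR adjusted p = 0.8305) and Hif3a on 34 to 107. With single mice left out, Hif3a ran from -0.78 to -0.35, Apln from 0.13 to 0.43 and Egln3 from -0.25 to -0.026. Barrier junction and transporter genes, many of them shared with epithelia, were below 0 for 10 of 14, with a median log2 fold change of -0.06 that ran from -0.099 to 0.0082 under the alternatives. Tjp1, which encodes the tight junction scaffold ZO-1, was at 203 ± 15.97 CPM in WT mice and 178 ± 14.5 CPM in Opa1+/- mice (log2 fold change -0.19, edgeR unadjusted p = 0.0447, adjusted p = 0.732). The tight junction gene Ocln and the lipid transporter gene Mfsd2a had log2 fold changes of -0.27 and 0.16, which ran from -0.35 to -0.16 and from 0.11 to 0.20 with single mice left out.

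Glucose transporter genes other than Slc2a1 were above 0 for 4 and below 0 for 4 of 8 tested, and Slc2a2 was too low to be tested. Slc2a13, a myo-inositol transporter gene, was at 17.3 ± 1.15 and 13.4 ± 2.76 CPM (log2 fold change -0.36 ± 0.14 SE, edgeR unadjusted p = 0.0242, adjusted p = 0.722). Slc2a12, Slc2a10 and Slc2a3 had log2 fold changes of -0.29, -0.16 and -0.06, and with single mice left out ran from -0.37 to -0.17, from -0.27 to -0.062 and from -0.12 to 0.075. The channel genes Kcnj11 and Abcc8 had log2 fold changes of -0.09 and -0.02, each with an adjusted p of 0.953 or more. Both turned above 0 in at least 1 fit with a single mouse left out, with ranges of -0.21 to 0.14 for Kcnj11 and -0.10 to 0.17 for Abcc8.

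For each of the 10 genes, the genes with the most similar pattern were those with the highest Pearson correlation of log2(CPM + 2) over the 8 mice, among 19365 tested genes. The mice differed in library depth and tissue make-up, which can bring unrelated genes together, and the correlations are a description. With Tek they were Foxf1 (r = 0.973) and Icam2 (r = 0.953), of which Icam2 is an endothelial adhesion gene on the lists used here. For Kdr they were Susd3 (r = 0.976) and Ache (r = 0.926), and for Flt1 Clcf1 (r = 0.976) and Fn1 (r = 0.957). Cdh5 was nearest to Cox4i1 (r = 0.955) and Idh3b (r = 0.952), and Pecam1 to Adgrd1 (r = 0.982) and Gm6430 (r = 0.957). Slc2a1 was nearest to Invs (r = 0.984) and Slc4a2 (r = 0.976). Among the mural genes, Pdgfrb was nearest to Bhlhe40 (r = 0.978) and Tnfsf13os (r = 0.961), Rgs5 to Tnfsf12 (r = 0.969) and RP24-346B15.3 (r = 0.961), Abcc9 to Col5a2 (r = 0.983) and Tymp (r = 0.978), and Kcnj8 to Gm20390 (r = 0.974). High values were common over so few mice, as the 100th nearest gene still had r between 0.779 and 0.903. Between 0 and 4 of the 100 nearest genes of each were on the vascular lists.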

How the data were processed

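RNA was sequenced from whole cochleae of 4 WT and 4 Opa1+/- mice. The authors prepared CORALL libraries, sequenced paired reads of 80 nucleotides, mapped them with STAR to GRCm38, used molecular identifiers against amplification bias, and deposited raw counts per gene symbol, 1 table per mouse. The labels name TRI Reagent or an RNeasy microkit for the extraction and do not say which mouse had which. The paper names the CORALL Data Analysis Pipeline for the raw data. The counting program and strand use are not given in the sources used here. Entries with a number in place of a symbol (15, up to 0.124% of counts) were left out.

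Genes with a mean count over 10 after scaling by DESeq2 size factors were tested (19366) with edgeR 4.0.16 (TMM, quasi-likelihood test, no covariate) and Benjamini-Hochberg adjustment in R 4.3.3. SE is the absolute log2 fold change over the square root of F, and 95% intervals use its t quantile. Ratios per length had 0.5 counts added. Single values had exact permutation tests. Scripts were tested on simulated data. Alternatives were DESeq2 1.42.0, other scalings and filters, a threshold of 0.1, each mouse left out, both mice of 3-digit number left out, 5 counts added, and the longest transcript as length.

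The 10 genes and the 18 lists were chosen with earlier results of these data known. Named are the 10 genes; of each related list the 3 genes of lowest unadjusted p and a fixed set (Cldn5, Emcn, Tie1, Cspg4, Notch3, Acta2, Vegfa, Angpt1, Pdgfb, Kcnj11, Abcc8, Slc2a3); of other cell types their sums with Hbb-bs, Alas2, Pf4, Csf1r, Dcn and Acta1; the 2 most correlated genes of each, of which 1 is not reported here; and Opa1. Of 187 listed symbols 186 were matched, 1 of them by a synonym (Vegfd as Figf). Pdgfra is on 2 lists.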

Additional observations from a re-analysis of the deposited data

Results flagged for a closer look

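Of 48 groups of 4 mice examined, over the 10 vascular genes, Opa1, the 5 ratios and the sums of the other cell types, 5 had 1 mouse far from the other 3 by Dixon's test, which chance flags in about 1 of 20 groups. WT mouse 6 stood apart for Flt1, at 69.1 CPM, and for Pdgfrb, at 106 CPM, with a gap to the nearest WT mouse of 0.919 and 0.990 of the WT range. The same mouse had the muscle sum of 2469 CPM, above the other WT mice by 0.836 of the range. Without it the log2 fold change was 0.15 for Pdgfrb and 0.15 for Flt1, neither past the adjusted threshold in edgeR (lowest adjusted p = 0.636). WT mouse 4 stood apart for the platelet sum, at 182 CPM, and for the neutrophil and marrow sum, at 1421 CPM.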

How the results depend on the processing

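Of the 10 vascular genes, 0 passed the adjusted threshold under each alternative run, while between 0 (without Opa1+/- mouse 2, or without mice L and H) and 25 (DESeq2) of all genes passed, so that several alternatives could call few genes of any kind. Cdh5 kept non-overlapping genotypes wherever overlap was recomputed, and a log2 fold change of 0.16 to 0.23 under each alternative. Estimates close to 0 changed sign when mice were left out: Pecam1 -0.034 without Opa1+/- mouse 2, Kdr -0.031 without WT mouse 8 and -0.012 without Opa1+/- mouse 7, Flt1 -0.013 without Opa1+/- mouse 7, Slc2a1 0.044 without WT mouse 6, and Abcc9 0.023, 0.027 and 0.040 without WT mouse 8, Opa1+/- mouse 7 or Opa1+/- mouse H and 0.0015 without Opa1+/- mice L and H together. Over single mice left out, the ranges were -0.034 to 0.12 for Pecam1, -0.031 to 0.16 for Kdr, -0.013 to 0.15 for Flt1, -0.19 to 0.044 for Slc2a1, -0.043 to 0.040 for Abcc9, 0.014 to 0.16 for Tek, 0.011 to 0.12 for Rgs5 and 0.15 to 0.31 for Kcnj8. The log2 difference of Kdr over Flt1 ran from -0.063 to 0.14 and that of Rgs5 over Pdgfrb from -0.042 to 0.040. Pdgfrb (0.05) ran from 0.015 without WT mouse 8 to 0.15 without WT mouse 6. The cause of these changes was not tested.

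The count of genes without overlap was 1 to 2 when single mice were left out (2 without WT mouse 4 or Opa1+/- mouse 2, with Kcnj8, and without WT mouse 6, with Pdgfrb, where 11.6%, 6.98% and 9.12% of all genes did not overlap), and 2 without Opa1+/- mice L and H, where 12.2% of all genes did not overlap. The endothelial median was then 0.20, and with single mice left out it ran from 0.0087 without Opa1+/- mouse 7 to 0.13 without Opa1+/- mouse H; the mural median ran from 0.015 without WT mouse 4 to 0.13 without WT mouse 6. Opa1 ran from -0.90 to -0.83 with single mice left out, and missed the threshold without Opa1+/- mouse 2 (-0.85, adjusted p = 0.0704) and without mice L and H (-0.86, adjusted p = 0.260), where fewer mice were compared. Scaling by total counts alone gave 459 higher and 778 lower genes at an unadjusted p under 0.05, against 679 and 623. No paired analysis by litter was possible because the litter of each mouse is not in the sources used here. Of the 10 vascular genes, depth limits Kcnj8 most, at 76 to 111 counts per mouse.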
